A study of Mesocricetus auratus with 38 samples.

Results

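The 8 genes described here encode the stress-responsive transcription factor NRF2 (Nfe2l2), its cytoplasmic inhibitor KEAP1 (Keap1), 3 enzymes encoded by classical NRF2 target genes (Hmox1, Nqo1 and Srxn1), and the enzymes that remove superoxide and hydrogen peroxide (Sod1, Sod2 and Cat). They were taken by gene symbol from the deposited tables of liver RNA, which hold 14631 symbols. All 8 were found, and all 8 were among the 9099 genes that passed the filter on low counts. KEAP1 holds NRF2 in the cytoplasm and presents it to the CUL3 ubiquitin ligase. Oxidants and electrophiles modify KEAP1, after which NRF2 accumulates and, with a small MAF protein, binds antioxidant response elements. Superoxide dismutases turn superoxide into hydrogen peroxide, in the cytosol (SOD1) and in mitochondria (SOD2), and catalase breaks hydrogen peroxide down, mostly in peroxisomes, which hepatocytes hold in large numbers.

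Livers of male Golden Syrian hamsters, 22 weeks old by their labels, were compared in 4 groups with 38 libraries in all. In the control group (Chow diet, 9 libraries), fat supplied 11% of the calories over 12 weeks. In the HFD group (10 libraries), fat supplied 23% over the same 12 weeks, cholesterol was added to the feed, and a placebo was given in the final 4 weeks. Animals of the HFD + MI_D1 group (Dose I, 9 libraries) and the HFD + MI_D2 group (Dose II, 10 libraries) stayed on this HFD and were given combined metabolic activators (CMA) in those 4 weeks. In Dose I, L-carnitine, N-acetylcysteine (NAC) and nicotinamide riboside were given by mouth at 200 mg/kg each, with betaine at 400 mg/kg in the drinking water, and in Dose II these amounts were 400 and 800 mg/kg. NAC and betaine feed glutathione synthesis, nicotinamide riboside is a precursor of NAD+, and L-carnitine carries fatty acids into mitochondria. No animal is named in the labels, so each library was taken as 1 liver, and p-values weigh group differences against the spread between these libraries.

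The total estimated count was 4075609 to 10384523 per library. One control, C105, stood apart from the other controls, with a score of 18.97 on the first principal component against -23.11 to -13.02, and it was taken as the control that the study left out after its own principal component analysis. The values below therefore come from the 37 libraries without C105 unless all 38 are named, and many Chow diet results, though not all, are given with both. Levels are in CPM, counts relative to the library total after TMM scaling, the usual correction for RNA composition. Of 18 hepatocyte markers 16 were in the table, and none was at 0 in all livers. A gene was called higher or lower at an adjusted p under 0.1 (edgeR, Benjamini-Hochberg over all tested genes), which is the threshold of the study. The RNA comes from whole liver, in which fewer cells of a type and less RNA per cell cannot be told apart.

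Per transcript length (TPM), the 8 genes spanned a wide range of levels in every group. Sod1 was the highest, at 2531 ± 206 TPM (SD, n = 8) in the control group, followed by Cat at 1696 ± 175 TPM. Nqo1 stood at 106.9 ± 9.53 TPM and Sod2 at 81.8 ± 5.01 TPM in the same livers, and the ranges of these neighbours did not overlap there (lowest Nqo1 93.2, highest Sod2 90.6 TPM). Keap1 came next with 27.6 ± 2.90 TPM, then Nfe2l2 with 16.03 ± 3.73 and Hmox1 with 12.7 ± 1.55 TPM, and Srxn1 was the lowest with 5.39 ± 0.983 TPM. In the HFD + MI_D2 group Nqo1 was at 73.0 ± 14.0 TPM and Sod2 at 89.5 ± 9.69 TPM, so that their order of means was the opposite of that in the controls, with overlapping ranges (highest Nqo1 95.8, lowest Sod2 79.8 TPM).

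The first question was what the HFD changed. Hmox1 and Nfe2l2 were higher in the HFD group than in the control group, Cat was lower, and the other 5 genes did not pass the test. Thus 2 of 8 members were called higher, where 18.1% of all tested genes were, and 1 of 8 lower, where 18.1% of all tested genes were. The median log2 fold change of the 8 members was 0.11, beside 0.01 over all tested genes. Over all 38 libraries 2 members were called higher (6.63% of genes) and 0 lower (8.94% of genes).

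Hmox1 encodes the inducible heme oxygenase, which opens heme to biliverdin, carbon monoxide and iron. Its lowest, median and highest levels were 12.4, 17.6 and 19.5 CPM in the control group and 19.2, 21.7 and 32.1 CPM in the HFD group. In the HFD group 9 of 10 livers lay above every control. Its log2 fold change was 0.52 (SE 0.12, adjusted p = 0.00117 by edgeR), which is 1.43-fold, and it was 0.52 (adjusted p = 0.00288) over all 38 libraries. The call held in all 11 alternative fits and whichever of the 18 libraries was left out. The HFD livers were not evenly spread, since H110, H113, H115 and H118 had 30.4, 31.5, 28.0 and 32.1 CPM and the other 6 had 19.2 to 21.9 CPM.

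Nfe2l2 encodes NRF2 itself. Its lowest, median and highest levels were 27.1, 44.6 and 52.6 CPM in the control group and 39.05, 56.2 and 71.2 CPM in the HFD group. In the HFD group 8 of 10 livers lay above every control, and H110, one of the livers highest in Hmox1, was the lowest in Nfe2l2. The difference on the log2 scale was 0.45 (SE 0.13, adjusted p = 0.00847 by edgeR), and 0.46 (adjusted p = 0.0146) over all 38 libraries. The call held in all 11 alternative fits and in all 18 fits with a library left out.

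Keap1 had nearly the same level in every group, with means of 89.1 ± 8.39 (n = 8), 89.0 ± 6.94 (n = 10), 85.3 ± 6.81 (n = 9) and 88.2 ± 7.76 CPM (n = 10) in the Chow diet, HFD, HFD + MI_D1 and HFD + MI_D2 groups. HFD against control gave a log2 fold change of -0.00 (95% interval -0.13 to 0.12), or -0.07 over all 38 libraries, and Keap1 was not called in any of the 6 comparisons. The spread between livers was small, with a coefficient of variation of 7.80% to 9.42% within groups. C105 lay above these livers at 124.2 CPM.

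Cat encodes catalase. Its lowest, median and highest levels were 3857, 4429 and 5352 CPM in the control group and 3220, 3847 and 5115 CPM in the HFD group, where 7 of 10 livers lay below every control. Its log2 fold change was -0.19 (SE 0.08, adjusted p = 0.0725 by edgeR). Over all 38 libraries it was -0.16 and was not called (adjusted p = 0.243), and C105 had 3402 CPM, below every other control. The call was also lost without any 1 of the controls C101, C108 and C109 or of the HFD livers H113, H114, H115 and H118, with adjusted p = 0.113 to 0.205, without a filter on low counts (0.112) and with each library's trend with gene length taken out (0.106). Of 16 hepatocyte markers, 2 were higher and 5 lower (0 and 4 over all 38 libraries), beside 18.1% of all tested genes in each direction (6.63% and 8.94% over all 38). Their summed level, to which the albumin gene Alb adds most (log2 fold change -0.48), was 148903 to 170436 TPM in the control group and 111746 to 147452 TPM in the HFD group. Their part in the Cat difference was not tested.

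Nqo1, which encodes a quinone reductase that uses NADH or NADPH, had a lowest, median and highest level of 146.5, 156.5 and 199.6 CPM in the control group and 111.5, 137.5 and 177.1 CPM in the HFD group. Of the HFD livers 6 of 10 lay below every control, with a log2 fold change of -0.21 (SE 0.12) that was not called (adjusted p = 0.174 by edgeR, 0.153 over all 38 libraries). Srxn1 encodes sulfiredoxin, which restores overoxidised peroxiredoxins. Its levels ran from 11.3 to 18.9 CPM in the control group and from 9.69 to 26.7 CPM in the HFD group, where its coefficient of variation of 31.2% was the highest of the 8 members, and its difference of 0.19 (95% interval -0.15 to 0.52) was not called.

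Among the dismutases, Sod1 had a lowest, median and highest level of 1097, 1355 and 1619 CPM in the control group and 1286, 1497 and 1781 CPM in the HFD group, with a log2 fold change of 0.14 (95% interval -0.02 to 0.30). C105 had 3160 CPM of Sod1, far above the other 37 livers, whose highest was 2005 CPM, and with it the difference was -0.07. Sod2, the mitochondrial enzyme, ranged from 314 to 387 CPM in the control group and from 305 to 398 CPM in the HFD group, a difference of 0.07 (95% interval -0.05 to 0.19). Neither was called in these fits, and Sod2 was called higher (0.16, adjusted p = 0.0603) with each library's trend with gene length taken out.

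**Figure D1:**
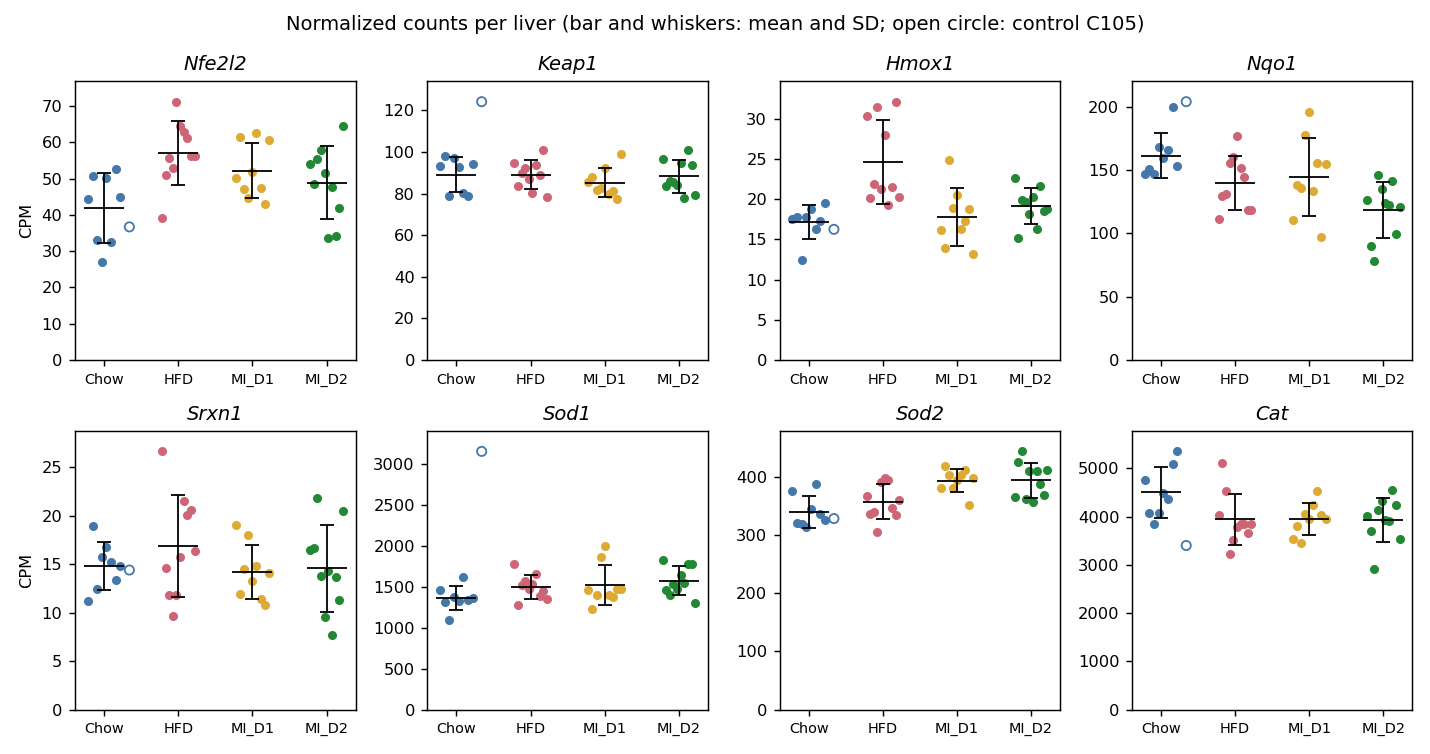
Levels of the 8 genes in each liver (points, in CPM on axes that start at 0) by group, where bars and whiskers give each mean ± SD without C105, the open circle. Hmox1 stood at 24.6 ± 5.20 CPM in the HFD group and at 17.2 to 19.1 CPM on average in the other groups, and Nqo1 in the HFD + MI_D2 group lay below all controls. The share of all genes separated in this way was not counted.

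The second question was whether CMA changed these genes on the HFD. At both doses Hmox1 was lower than in the HFD group and was the only member called. In the HFD + MI_D1 group 1 of 8 members was called lower (0.033% of all tested genes were, or 3 genes) and 0 higher (0.154%). In the HFD + MI_D2 group 1 of 8 was called lower (2.25% of genes) and 0 higher (3.37% of genes). The members' median log2 fold changes were -0.03 and -0.11, and those of all tested genes were 0.00 and -0.00. Over all 38 libraries 0 members were called for Dose I (0.0553% of genes higher and 0% lower) and 1 lower for Dose II (1.63% higher and 1.07% lower).

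The lowest, median and highest Hmox1 levels were 13.1, 17.3 and 24.9 CPM in the HFD + MI_D1 group and 15.2, 19.2 and 22.6 CPM in the HFD + MI_D2 group. With Dose I, 7 of 9 livers lay below every HFD liver, and with Dose II, 5 of 10 did, so the ranges overlapped at both doses. For Dose I the log2 fold change was -0.47 (SE 0.11, adjusted p = 0.0924 by edgeR), and it lay close to the threshold. It was not called over all 38 libraries (adjusted p = 0.124), without a filter on low counts (0.108) or with only the 2 groups in the fit (0.227), although the log2 fold change stayed between -0.53 and -0.47 in all 11 alternatives. It was also lost in 11 of 19 fits with a library left out, namely DI121, DI125, DI126, DI127, DI128, H110, H113, H114, H115, H117 or H118, with adjusted p = 0.108 to 0.206. For Dose II it was -0.37 (SE 0.11, adjusted p = 0.0536, and 0.0800 over all 38 libraries). It was called in all 11 alternative fits, and only leaving out DII135, among the 20 libraries compared, ended the call (adjusted p = 0.103). Against the control group Hmox1 differed by 0.05 (95% interval -0.19 to 0.28) with Dose I and by 0.15 (95% interval -0.08 to 0.38) with Dose II.

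Nfe2l2 was not called at either dose against the HFD group. Its lowest, median and highest levels were 43.02, 50.05 and 62.54 CPM with Dose I and 33.51, 50.01 and 64.35 CPM with Dose II. The differences from the HFD group were -0.13 (95% interval -0.37 to 0.11) and -0.23 (95% interval -0.46 to 0.01).

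Sod2 had a lowest, median and highest level of 350, 397 and 418 CPM with Dose I and of 357, 399 and 443 CPM with Dose II. All 10 livers of Dose II and 8 of 9 of Dose I lay above the HFD median of 353 CPM. The difference was 0.14 at each dose (SE 0.06 for both) and was not called against the HFD group (adjusted p = 0.436 and 0.158 by edgeR). Nqo1 was at 96.7, 138.1 and 195.6 CPM with Dose I and at 78.3, 123.1 and 145.9 CPM with Dose II. Its difference from the HFD group was 0.05 with Dose I and -0.24 with Dose II, and neither was called (adjusted p = 0.934 and 0.230), but Dose II was called lower by limma on log2(TPM + 1) (-0.33, adjusted p = 0.0884). In that limma fit, on TPM without TMM scaling, the median over all genes was -0.06.

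The remaining members were not called with CMA. Cat differed from the HFD group by 0.00 (95% interval -0.15 to 0.16) with Dose I and by -0.00 (95% interval -0.16 to 0.15) with Dose II. The corresponding values were 0.02 and 0.07 for Sod1 and -0.06 and -0.01 for Keap1. Srxn1 differed by -0.25 (SE 0.17) and -0.21 (SE 0.16), and its levels ran from 10.8 to 19.1 CPM with Dose I and from 7.72 to 21.8 CPM with Dose II.

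Between the doses, 0 of 8 members and 0 of 9099 genes were called, that is 0% in each direction (0% over all 38 libraries), and 271 genes had an unadjusted p under 0.05 by edgeR. DESeq2 and limma also called 0 genes. The member with the smallest p was Nqo1, lower with Dose II than with Dose I by 0.28 on the log2 scale (log2 fold change -0.28, SE 0.11, unadjusted p = 0.0152, adjusted p = 0.9999). For Hmox1 the difference of Dose II from Dose I was 0.11 (95% interval -0.11 to 0.33), and for Sod2 it was 0.00 (95% interval -0.11 to 0.12).

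**Figure D2:**
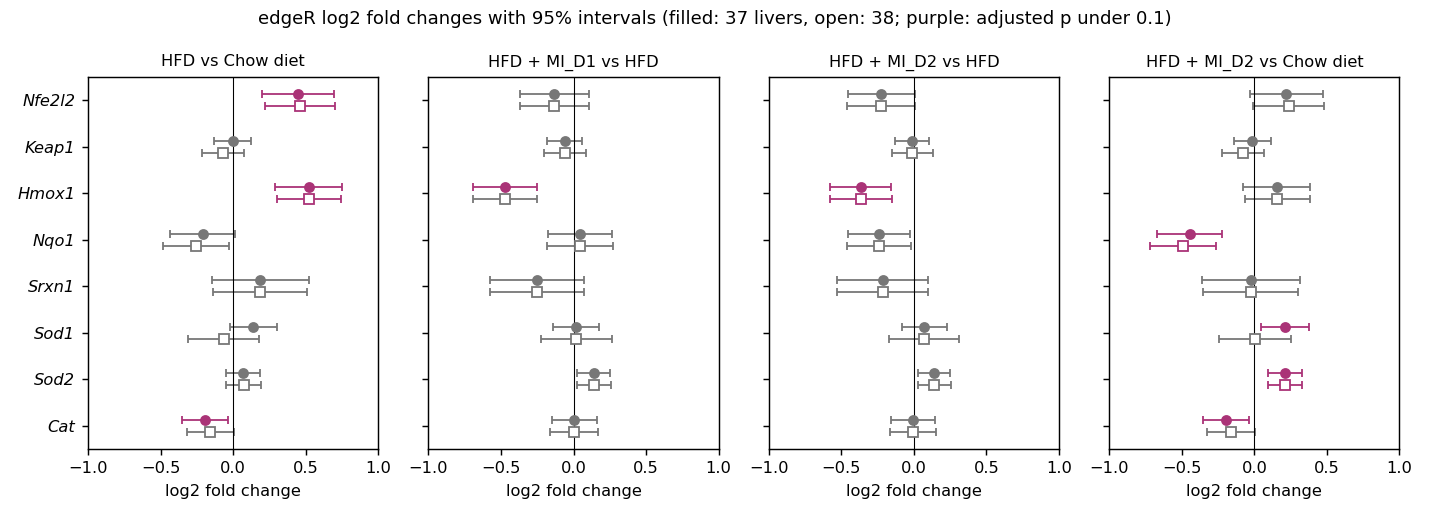
Log2 fold changes of the 8 genes by edgeR in 4 comparisons, with 95% intervals, where filled circles are fits over 37 livers, open squares fits over all 38, and purple marks an adjusted p under 0.1. Hmox1 moved by 0.52 with the HFD and by -0.47 and -0.37 with Dose I and Dose II, and the Sod1 estimate shifted when C105 was included.

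Finally, the CMA groups were set against the control group. These comparisons share their control livers with HFD against control, so their values are given side by side and are not independent of it. With Dose I, 2 of 8 members were called higher (20.6% of genes) and 1 lower (20.1% of genes). With Dose II, 2 were called higher (23.9% of genes) and 2 lower (23.4% of genes). Over all 38 libraries, 2 members were higher and 0 lower with Dose I (10.4% and 11.4% of genes), and 1 was higher and 1 lower with Dose II (15.6% and 17.3% of genes).

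Nqo1 was lower than in the control group by 0.45 on the log2 scale with Dose II (log2 fold change -0.45, SE 0.12, adjusted p = 0.00199 by edgeR). The groups did not overlap, since all 10 livers of Dose II, at 78.3 to 145.9 CPM, lay below all 8 controls. In this comparison 23.4% of all tested genes were called lower, and Nqo1 ranked 1722 of 9099 by p. The share of all genes without overlap was not counted, so the separation is not shown to be unusual. The call held over all 38 libraries (-0.49, adjusted p = 0.00190), where C105 had 204 CPM, and in all other alternative fits and with each library left out. The corresponding values were -0.21 for the HFD group and -0.16 (adjusted p = 0.3001) for Dose I. For the HFD group 1 of 11 alternative fits called it, with only the 2 groups in the fit (-0.21, adjusted p = 0.0836). None of the 18 fits with a library left out did. For Dose I 2 of 11 alternatives called it, both by limma (-0.27, adjusted p = 0.0755 on log2(TPM + 1)), and 0 of 17 fits with a library left out. In that limma fit, on TPM without TMM scaling, the median over all genes was -0.07 for Dose I against control.

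Sod2 was higher than in the control group by 0.21 at both doses (SE 0.06, adjusted p = 0.00790 for Dose I and 0.00441 for Dose II), beside 0.07 for the HFD group. With each dose, 6 livers lay above every control. The calls held over all 38 libraries (adjusted p = 0.0177 and 0.00852) and with each library left out, but limma on log2(TPM + 1) gave 0.13 and 0.12 with adjusted p = 0.101 and 0.111. That limma fit used TPM without TMM scaling, and its median log2 fold change over all genes was itself -0.07 for each dose against control.

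Cat was below the control level in the CMA groups, with log2 fold changes of -0.19 for Dose I (adjusted p = 0.0807) and -0.20 for Dose II (adjusted p = 0.0499), beside -0.19 for the HFD group. Neither was called over all 38 libraries (adjusted p = 0.236 and 0.156) or without a filter on low counts (0.134 and 0.102), and Dose I was also not called with the length trend taken out (0.125). Leaving out C108 or C109 ended both calls (adjusted p = 0.148 and 0.224 for Dose I, 0.108 and 0.139 for Dose II), and that of Dose I was also lost without C101, DI120, DI121, DI122 or DI128 (adjusted p = 0.102 to 0.138). Nfe2l2 was called higher than in the control group with Dose I (0.31, SE 0.13, adjusted p = 0.0603) and not with Dose II (0.22, adjusted p = 0.170). Over all 38 libraries the values by edgeR were 0.33 (adjusted p = 0.0711) and 0.24 (adjusted p = 0.160). The call for Dose I was lost without C103, C104, C107, DI125 or DI128 (adjusted p = 0.107 to 0.151) and in limma on log2(TPM + 1) (0.167). That of Dose II was gained without C108, DII134 or DII136 (adjusted p = 0.0838 to 0.0904).

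Sod1 was called higher with Dose II (0.21, SE 0.08, adjusted p = 0.0416), at 1305, 1548 and 1826 CPM as lowest, median and highest, and 4 of 10 livers lay above every control. This call rested on the choice of libraries and on the scaling. The difference was 0.01 (adjusted p = 0.981) over all 38 libraries, 0.17 (adjusted p = 0.110) without C103 and -0.03 (adjusted p = 0.792) when each library's trend with gene length was taken out. It was also not called by limma on log2(TPM + 1) (0.11, adjusted p = 0.206).

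Sod1 is a short transcript, with only 5.42% of tested genes shorter. Libraries differed in how their counts ran with gene length, measured as the Spearman correlation, across genes, of a library's deviation from the mean log2 CPM with gene length. This length trend was 0.12 to 0.34 in the 8 controls, -0.20 to 0.17 in the HFD group, -0.26 to 0.13 with Dose I and -0.28 to 0.11 with Dose II. The medians were 0.21, 0.02, -0.02 and -0.12, so over these 37 libraries the length trend and the diet cannot be told apart. C105, also a control, had the lowest length trend of all 38 libraries, at -0.36. With it, the range of the controls spans those of the other groups. Within groups, Sod1 was higher in libraries with a lower length trend (r = -0.758, rho = -0.687 over 37 libraries, deviations from group means). The permutation p was 1e-05 for both, the smallest that 100000 permutations can give, with an adjusted p of 0.00016 over 16 relations. The trend is computed from the same counts, and a lower trend means that short genes stand higher. A negative r for a short transcript is thus partly built into the measure, and the p is no separate evidence. Within the single groups r was -0.898, -0.693, -0.879 and -0.664, and without the 2 libraries farthest from the median it was -0.739. Keap1 was also higher in libraries with a lower length trend (r = -0.528, rho = -0.601, permutation p = 0.00094 and 0.00011, adjusted p = 0.00501 and 0.00088, r = -0.511 without the 2 farthest, and -0.255, -0.539, -0.536 and -0.710 within groups). Keap1 is not a short transcript, since 70.9% of tested genes are shorter, and the reason for its relation was not tested. The other 6 members had r of -0.340 to 0.285, with adjusted p for r of at least 0.137. With the length trend taken out, Hmox1 had log2 fold changes of 0.48, -0.48 and -0.39 for HFD against control, Dose I against HFD and Dose II against HFD, and Nqo1 had -0.50 for Dose II against control, all 4 still called. Cat was no longer called for HFD (-0.18) and Dose I (-0.17) against control and was still called for Dose II (-0.18, adjusted p = 0.0829), and Sod2 was called for all 3 (0.16, 0.31 and 0.33).

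Hmox1 is also expressed in Kupffer cells, the resident macrophages of the liver, which break down the heme of aged red cells. Of 27 macrophage markers 21 were tested, and 13 were higher and 0 lower in the HFD group than in the control group (7 and 0 over all 38 libraries), with a median log2 fold change of 0.50. Among them were the scavenger receptor gene Marco (1.01), the macrophage-secreted Cd5l (0.82) and the complement genes C1qa (0.70) and C1qc (0.83). With Dose I against HFD 0 of 21 were called, with a median of -0.43. With Dose II 8 were lower and 1 higher, with a median of -0.38, and over all 38 libraries 2 were lower and 1 higher. Those lower included Cd5l (-0.56), Marco (-0.52), the phosphatidylserine receptor gene Timd4 (-0.66) and the Kupffer cell lectin gene Clec4f (-0.48). The summed level of the 21 markers was 302 to 408 CPM in the control group, 389 to 648 in the HFD group, 315 to 593 with Dose I and 294 to 533 with Dose II, with medians of 351, 508, 362 and 393 CPM. Of the 22 markers in the table, 0 were at 0 in all 37 livers. Of 14 sinusoidal endothelial markers, 3 were higher and 1 lower with the HFD and 3 lower with Dose II against HFD (over all 38 libraries 0, 1 and 1). Of all tested genes, 18.1% were called in each direction for HFD against control (6.63% higher and 8.94% lower over all 38 libraries). For Dose I against HFD 0.154% were called higher and 0.033% lower. For Dose II against HFD the shares were 3.37% and 2.25% (1.63% and 1.07% over all 38 libraries).

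Within groups, Hmox1 rose with the summed macrophage level (r = 0.606, rho = 0.558 over 37 libraries, permutation p = 0.00027 and 0.00101, adjusted p = 0.00216 and 0.00539 over the same 16 relations). Without the 2 farthest libraries r was 0.539. It was 0.682, 0.683 and 0.675 within the HFD, HFD + MI_D1 and HFD + MI_D2 groups and 0.053 within the control group. C105 had a macrophage sum of 649.7 CPM beside an Hmox1 level of 16.2 CPM, which lies within the range of the other controls. The part of the macrophage markers in the Hmox1 differences was not tested. For the other 7 members, r with the macrophage sum was -0.324 to 0.323, with adjusted p for r of at least 0.137, although Keap1 passed by rank (rho = 0.390, permutation p = 0.0191, adjusted p = 0.0764).

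**Figure D3:**
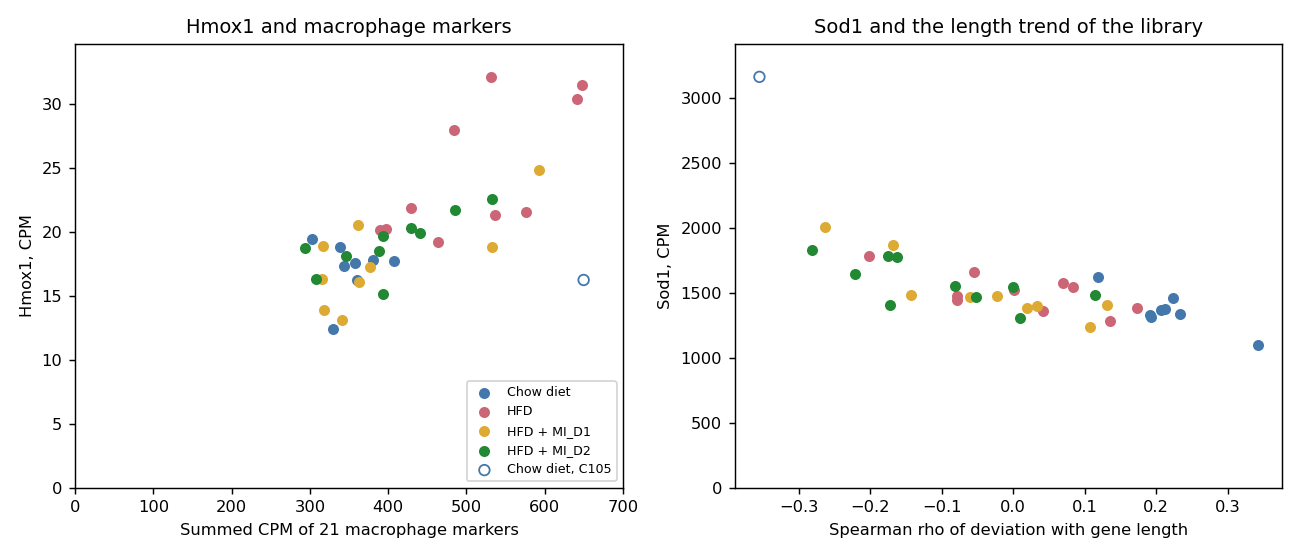
Left, Hmox1 (CPM) against the summed CPM of 21 macrophage markers in each liver, and right, Sod1 (CPM) against the library's length trend (Spearman rho), with livers coloured by group and C105 open. Within groups r was 0.606 on the left and -0.758 on the right, and C105 lies apart in both plots.

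The genes most like each called member were taken as the 5 with the highest Spearman rho over the 37 libraries, as a description in which group differences, depth and cell content are all included. For Hmox1 these were Fcer1g (rho 0.81), Spi1 (0.79), Cyba (0.77), Marco (0.77) and Fcgr4 (0.74), which encode myeloid receptors and their signalling chain, a myeloid transcription factor and a subunit of the phagocyte NADPH oxidase. Spi1 and Marco are also in the macrophage list. For Nfe2l2 they were Id2 (0.75), Txnip, Cfl2, Fam118a and Washc2 (0.64 to 0.65). For Nqo1 they were Osgepl1 (0.73), Mapk8, Zfp207, Nsdhl and Snx24 (0.68 to 0.70). For Sod1 they were Nedd8 (0.83), Pomp, Vps28, Trappc1 and Coa3 (0.78 to 0.83), for Sod2 Glyat (0.86), Kyat3, Cutal, Ces1g and Etfa (0.77 to 0.80), and for Cat Pigr (0.83), Aldh7a1, Hacd2, Surf4 and Abat (0.78 to 0.82). Among the members themselves, 0 of 28 pairs were related within groups at an adjusted p under 0.1. The closest pair was Hmox1 and Sod1 (r = 0.436, rho = 0.435, permutation p = 0.0114 and 0.0105, adjusted p = 0.205 and 0.147, r = 0.457 without the 2 farthest libraries).

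The other genes of the pathway were counted beside the 18.1% of all tested genes called in each direction for HFD against control, and for the NRF2 targets and heme genes the shares lay near it. Counts for Dose II against HFD, here and in the lists below, stand beside 3.37% of all tested genes higher and 2.25% lower. Those for Dose I against HFD stand beside 0.154% higher and 0.033% lower, so few that 0 calls says nothing about any of these lists. Over all 38 libraries the shares were 6.63% and 8.94% for HFD against control and 1.63% and 1.07% for Dose II against HFD. Of 23 tested NRF2 targets known mainly from mouse and human cells, the members not counted, 5 were higher and 6 lower in the HFD group than in the control group, with a median log2 fold change of -0.05 (2 and 4 over all 38 libraries, median -0.12). The aldehyde oxidase gene Aox1 (-0.46, adjusted p = 0.000138) and the thioredoxin reductase gene Txnrd1 (-0.62, adjusted p = 0.00140) were lower, and the thioredoxin gene Txn1 (0.39, adjusted p = 0.000742) and the aldo-keto reductase gene Akr1b8 (0.95, adjusted p = 0.00383) were higher. Over all 38 libraries Txn1 was not called (0.22, adjusted p = 0.230). With Dose I against HFD 0 of 23 were called. With Dose II 2 were higher and 2 lower, with a median of -0.03 (1 and 1 over all 38 libraries). Cbr3, a carbonyl reductase gene, rose by 0.55 and Me1, the gene of malic enzyme, which makes NADPH, fell by 1.07 on the log2 scale, and both were also called over all 38 libraries. Gstp1 (-0.27) and Akr7a5 (0.23) were not called there (adjusted p = 0.233 and 0.301).

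Of 15 tested NRF2 regulators, 2 were higher and 5 lower in the HFD group than in the control group, with a median of -0.02 (0 and 1 over all 38 libraries, median -0.07). Cul3, whose product is the scaffold of the ligase that KEAP1 recruits, was lower by both fits (-0.27, adjusted p = 0.000659, and -0.22, adjusted p = 0.0387). The coactivator genes Crebbp (-0.50) and Ep300 (-0.27) were lower and Park7 (0.26) was higher over the 37 libraries, and none of these 3 was called over all 38 (adjusted p = 0.198, 0.262 and 0.969). With the length trend taken out, Ep300 and Park7 were not called either (adjusted p = 0.558 and 0.453). With Dose II against HFD, 2 regulators were lower and 0 higher (1 and 0 over all 38 libraries, 1 and 1 with the length trend taken out, a fit whose share of all genes is not given here). They were Btrc (-0.53, adjusted p = 0.0235), the gene of a second ubiquitin ligase receptor for NRF2, and Bach2 (-0.27, adjusted p = 0.0951), the gene of a transcriptional repressor. With Dose I 0 regulators were called.

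Of 14 tested genes of heme synthesis, binding and breakdown, 3 were higher and 2 lower in the HFD group than in the control group, with a median of 0.03 (0 and 1 over all 38 libraries, median -0.01). Fech, the gene of ferrochelatase, which completes heme, was lower by both fits (-0.34, adjusted p = 0.00183, and -0.27, adjusted p = 0.0691). Hmox2, the constitutive heme oxygenase gene (0.21), the biliverdin reductase gene Blvrb (0.38) and the ferritin heavy chain gene Fth1 (0.29) were higher over the 37 libraries but not called over all 38 (adjusted p = 0.245, 0.667 and 0.832). No gene of this list was called at either dose against HFD, 0 of 14 each. Of all tested genes, 0.154% were called higher and 0.033% lower with Dose I, and 3.37% and 2.25% with Dose II. So few calls over all genes make 0 of 14 uninformative about the list. The median log2 fold change of the list with Dose II was 0.03.

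Of 13 further tested enzymes that act on superoxide and peroxides, 5 were higher and 0 lower in the HFD group than in the control group, with a median of 0.19. In the fit over all 38 libraries 1 was higher and 0 lower, with a median of 0.08, and with the length trend taken out 3 were higher and 0 lower, with a median of 0.04. The share of all genes called in the length trend fit is not given here, so its counts cannot be judged against one. The peroxiredoxin gene Prdx2 was higher by both fits (1.51, adjusted p = 3.49e-07, and 1.31, adjusted p = 2.48e-05), from a mean of 24.5 CPM in the control group to 69.8 CPM in the HFD group. The glutathione peroxidase genes Gpx1 (0.50) and Gpx4 (0.27) and the peroxiredoxin gene Prdx4 (0.26) were not called over all 38 libraries (adjusted p = 0.492, 0.702 and 0.498). With Dose II against HFD 4 of 13 were higher and 0 lower, with a median of 0.15 (2 and 0 over all 38 libraries). With the length trend taken out 4 were higher and 1 lower, with a median of 0.11. Gstk1, the gene of a glutathione transferase of mitochondria and peroxisomes (0.41, adjusted p = 0.00616), and Mpv17l, the gene of a peroxisomal membrane protein (0.84, adjusted p = 0.0155), were called by both fits, and Gpx4 (0.31) and Prdx5 (0.28) only over the 37 libraries. With Dose I 0 of 13 were called.

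Of 13 tested enzymes and subunits that make superoxide or hydrogen peroxide, 7 were lower and 1 higher in the HFD group than in the control group, with a median of -0.20 (5 and 1 over all 38 libraries). The urate oxidase gene Uox (-0.45, adjusted p = 7.33e-05), Aox1 and the glycolate oxidase gene Hao1 (-0.54, adjusted p = 0.00180) were lower, as Cat was. Cyba, the gene of a membrane subunit of the phagocyte NADPH oxidase, was higher (1.13, adjusted p = 0.000949) and is 1 of the 5 genes most like Hmox1. With Dose II against HFD 2 were higher and 0 lower, namely the D-amino acid oxidase gene Dao (0.40, adjusted p = 0.0178) and Uox (0.27, adjusted p = 0.0338), both also over all 38 libraries. With Dose I 0 of 13 were called.

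**Figure D4:**
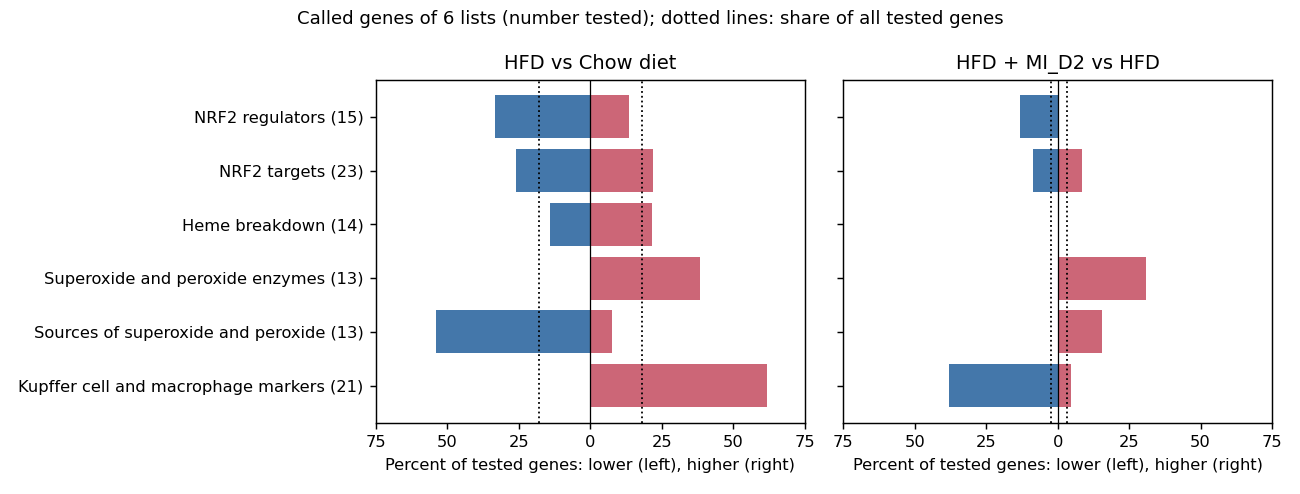
Share of tested genes called lower (left, blue) and higher (right, red) in 6 gene lists, in percent, for HFD against control and HFD + MI_D2 against HFD over 37 livers, with dotted lines at the shares of all tested genes. Macrophage markers were called higher for 13 of 21 with the HFD and lower for 8 of 21 with Dose II.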

How the data were processed

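Liver RNA was sequenced by the authors, who ran kallisto (its version is not given in the sources used here) against MesAur1.0, the hamster assembly, with Ensembl release 101. They deposited estimated counts and TPM per gene symbol, and groups were taken from the sample labels and doses from the methods. The estimated counts were rounded, filtered with filterByExpr, put on a common scale by TMM, and compared by the quasi-likelihood F test of edgeR 4.0.16 in R 4.3.3, with a coefficient for each of the 4 groups. SEs are the log2 fold change over the square root of F. C105, the control apart on the first principal component, was left out, taken as the one that the study excluded. Alternatives were all 38 libraries, DESeq2 1.42.0, RLE scaling, other filters, only the groups compared, offsets for the length trend (lowess span 0.3), limma 3.58.1 on log2(TPM + 1) or log2(TPM + 0.1), calls at adjusted p under 0.05, and fits that drop 1 library at a time. Gene length was taken as counts over TPM. Transcripts that share sequence split their reads in kallisto. Counts were whole, to within 0.01, in 38 of 38 libraries for 5 members but in 32 for Hmox1, 20 for Sod2 and 7 for Cat, so these share some reads with other transcripts. Members and gene lists were chosen with earlier results of these data known. All members are named, with up to 4 genes of each list by smallest adjusted p and the 5 genes most like each called member. The test was checked on simulated data. Sequences and positions were not used here.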

Additional observations from a re-analysis of the deposited data

Results flagged for a closer look

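In 2 of 32 combinations of gene and group, 1 library lay far from the rest of its group, by its gap to the nearest library relative to the range of the group, where chance flags about 1 in 20. Hmox1 in control C103 was at 12.4 CPM, beside 16.2 to 19.5 CPM in the other controls. Nqo1 in control C108 was at 200 CPM (199.6), beside 146 to 168 CPM in the other controls. Leaving out either library ended no call of the gene concerned.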

How the results depend on the processing

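No paired analysis was possible because the library numbers run on through the groups and no number is shared. Over all 38 libraries, 1409 genes were called for HFD against control instead of 3296 (DESeq2 1576, length trend 1459), 5 instead of 17 for Dose I against HFD (DESeq2 41), 244 instead of 512 for Dose II against HFD (length trend 271) and 1972 instead of 3704 for Dose I against control (DESeq2 2109, length trend 2023). For Dose I against HFD, DESeq2 called 79 genes, a fit without filter 8 and one of only these groups 6. At a threshold of 0.05, 5 genes were called for Dose I and 230 for Dose II against HFD. The members called for Dose I against HFD fell from 1 to 0 over all 38 libraries, without a filter, in the fit of only these groups and at 0.05. For Dose II against HFD they were 2 by both limma fits and 0 at 0.05, for Dose I against control 1 instead of 3 at 0.05, and for Dose II against control 2 instead of 4 over all 38 libraries (also by DESeq2 and with the length trend) and by both limma fits. The Sod1 difference of Dose II from control turned to -0.0271 with length trend offsets, and to -0.0068 by DESeq2 and -0.1146 by length trend offsets over all 38 libraries. The fits over all 38 libraries with DESeq2 or length trend offsets were chosen after seeing the data. With each library left out, 2878 to 3478 genes and 2 to 3 members were called for HFD against control, 4 to 81 and 0 to 1 for Dose I against HFD, 300 to 629 and 0 to 1 for Dose II against HFD, 3296 to 3725 and 1 to 3 for Dose I against control, 4032 to 4387 and 3 to 5 for Dose II against control, and 0 and 0 between doses. The count for Dose I against HFD moved by over 1.5 times without DI120, DI122 or DI123 (28 to 81) and without DI121, DI126, DI127, DI128, H113, H114, H115, H116, H117 or H118 (4 to 10), and that for Dose II against HFD without DII135, DII136 or H114 (300 to 339). Beyond the 3 reversed values, of the other tests of single members 60 were no longer past the threshold, 11 newly past it and 1342 on the same side. The cause of these changes was not tested. Hmox1 and Srxn1 rest on 61 to 228 and 44 to 159 counts per library, which limits their precision.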

Other observations

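Dose II on the HFD, set against the control group, showed the wider set of enzymes that act on superoxide and peroxides higher for 8 of 13 tested genes and lower for 0 (5 and 0 over all 38 libraries, 6 and 0 with the length trend taken out). The median log2 fold change was 0.33, and it was 0.12 over all 38 libraries and 0.17 with the length trend taken out. Prdx2 (1.29), Gpx4 (0.58), Gpx1 (0.80) and Ccs (0.36), whose product loads copper into SOD1, were called by both fits. Of 23 NRF2 targets 7 were higher and 6 lower (5 and 7 over all 38 libraries, 6 and 10 with the length trend taken out), with Cbr3 (0.87) and Txn1 (0.50) higher and Me1 (-1.79) and Aox1 (-0.55) lower by both fits. Of 15 NRF2 regulators 3 were higher and 7 lower (1 and 5), and Cul3 (-0.40), Ep300 (-0.40) and Nfe2l1 (-0.39), the gene of an NRF2 relative, were lower by both fits. Of 14 heme genes 4 were higher and 3 lower (2 and 3), with Blvrb (0.63) and Hmox2 (0.29) higher and Fech (-0.36) lower by both fits. Of 13 sources of superoxide and peroxide 1 was higher and 7 lower (1 and 6). The counts over 37 libraries stand beside 23.9% of all genes called higher and 23.4% called lower in the same comparison. Those over all 38 libraries stand beside 15.6% and 17.3%, and no such share is given here for the length trend fit. This comparison shares its control livers with HFD against control.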
